A study of Mus musculus with 4 samples.

Results

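Axon guidance genes were followed as mouse bone marrow was cultured into osteoclasts, the multinucleated cells that resorb bone. The set was defined by gene symbol, and it was chosen with earlier results of these data known. It covered the semaphorins, their plexin and neuropilin receptors, the ephrins and Eph receptors, the netrins and Unc5 genes, and the slits and Robo receptors. It held 70 of the 18193 genes that had a symbol of their own on the array, in 155 probe sets. Unc5cl was kept because its symbol fits the Unc5 pattern. The 6 Slitrk genes, the unrelated gene Unc50 and 1 antisense transcript of Plxna4 were left out, and Ephb2 was not analysed here.

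Marrow came from female C57Bl/6J mice aged 12 weeks, with no genetic change named in the labels. The day 1 cells were taken when the marrow was extracted, and the day 4 cells after 3 days with 10 nM vitamin D3 and 10% serum. The day 5 and day 7 cells were then also given 20 ng/ml M-CSF, which sustains the macrophage lineage, and 40 ng/ml RANKL, the cytokine that induces osteoclasts. Their labels give 4 and 6 days of differentiation. Each day was measured on 1 Affymetrix array, so no value has a replicate, no difference was tested, and each statement describes these 4 arrays. Cytokines and time in culture cannot be told apart, because no array of days 5 or 7 lacked the cytokines. Day 4 differed from day 1 in both vitamin D3 and time in culture, which cannot be told apart either. The labels do not say whether animals were pooled.

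Guidance molecules were named for steering growing nerve fibres, but many of them act in bone. Class 3 semaphorins are secreted, and most of them bind neuropilins, which signal through plexins. Most other semaphorins sit in the membrane and bind plexins directly. Ephrins and Eph receptors are both anchored in the membrane, so they signal between touching cells and in both directions. Ephrin B on osteoclasts and Eph receptors on osteoblasts are a known pair in bone, as are semaphorins made by one of these cell types and plexins on the other. Slits signal through Robo receptors, and netrins through Unc5 receptors and through Dcc and Neo1.

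The values are probe set signals, an intensity on a linear scale. A floor of 32.4 signal units, the median of all values, stood in for background, because detection calls were not used here. A gene's value is that of its brightest probe set, by mean log2 signal over the 4 arrays with signals under the floor set to it. A probe set can thus be used because of a high signal on 1 array. Genes at least 2-fold apart after flooring are described as higher or lower. Where a gene was above the floor on 1 of 2 arrays the fold is a bound, written as at least N-fold. Of the 70 genes, 49 passed the floor on 1 or more arrays (70%, against 68.4% of all genes) and 23 on all 4 arrays. The other 21 stayed at or below a signal of 27.5 throughout. They were Sema3b, Sema3d, Sema4g, Sema5b and Sema6a; Epha1, Epha3, Epha5, Epha6, Epha7, Epha8 and Epha10; Ephb1 and Ephb4; Ntn3, Ntn5 and Ntng1; Slit1 and Slit3; Robo2; and Unc5d. Signals were low in general: the highest signal was under 100 for 27 of the 49 genes and over 500 for 9.

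The trimmed mean signal was between 277 and 296 on the 4 arrays, and 46.6% to 52.6% of probe sets lay above the floor. The labels call all samples primary osteoclasts. On day 1, 9 of 13 osteoclast markers were above the floor, with the calcitonin receptor gene Calcr, the fusion genes Dcstamp and Ocstamp and the receptor gene Oscar at it, and all 13 were above it on days 5 and 7. The cultures were mixed on every day. The summed signal of 15 stromal and osteoblast markers was 2360 in fresh marrow, then 30490, 39580 and 27013 on days 4, 5 and 7. That of 10 neutrophil markers was 114093, 68753, 37207 and 5328, and that of 13 osteoclast markers 12221, 33381, 51553 and 60164. In such bulk samples, fewer cells of a type and less RNA per cell cannot be told apart.

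**Figure D1:**
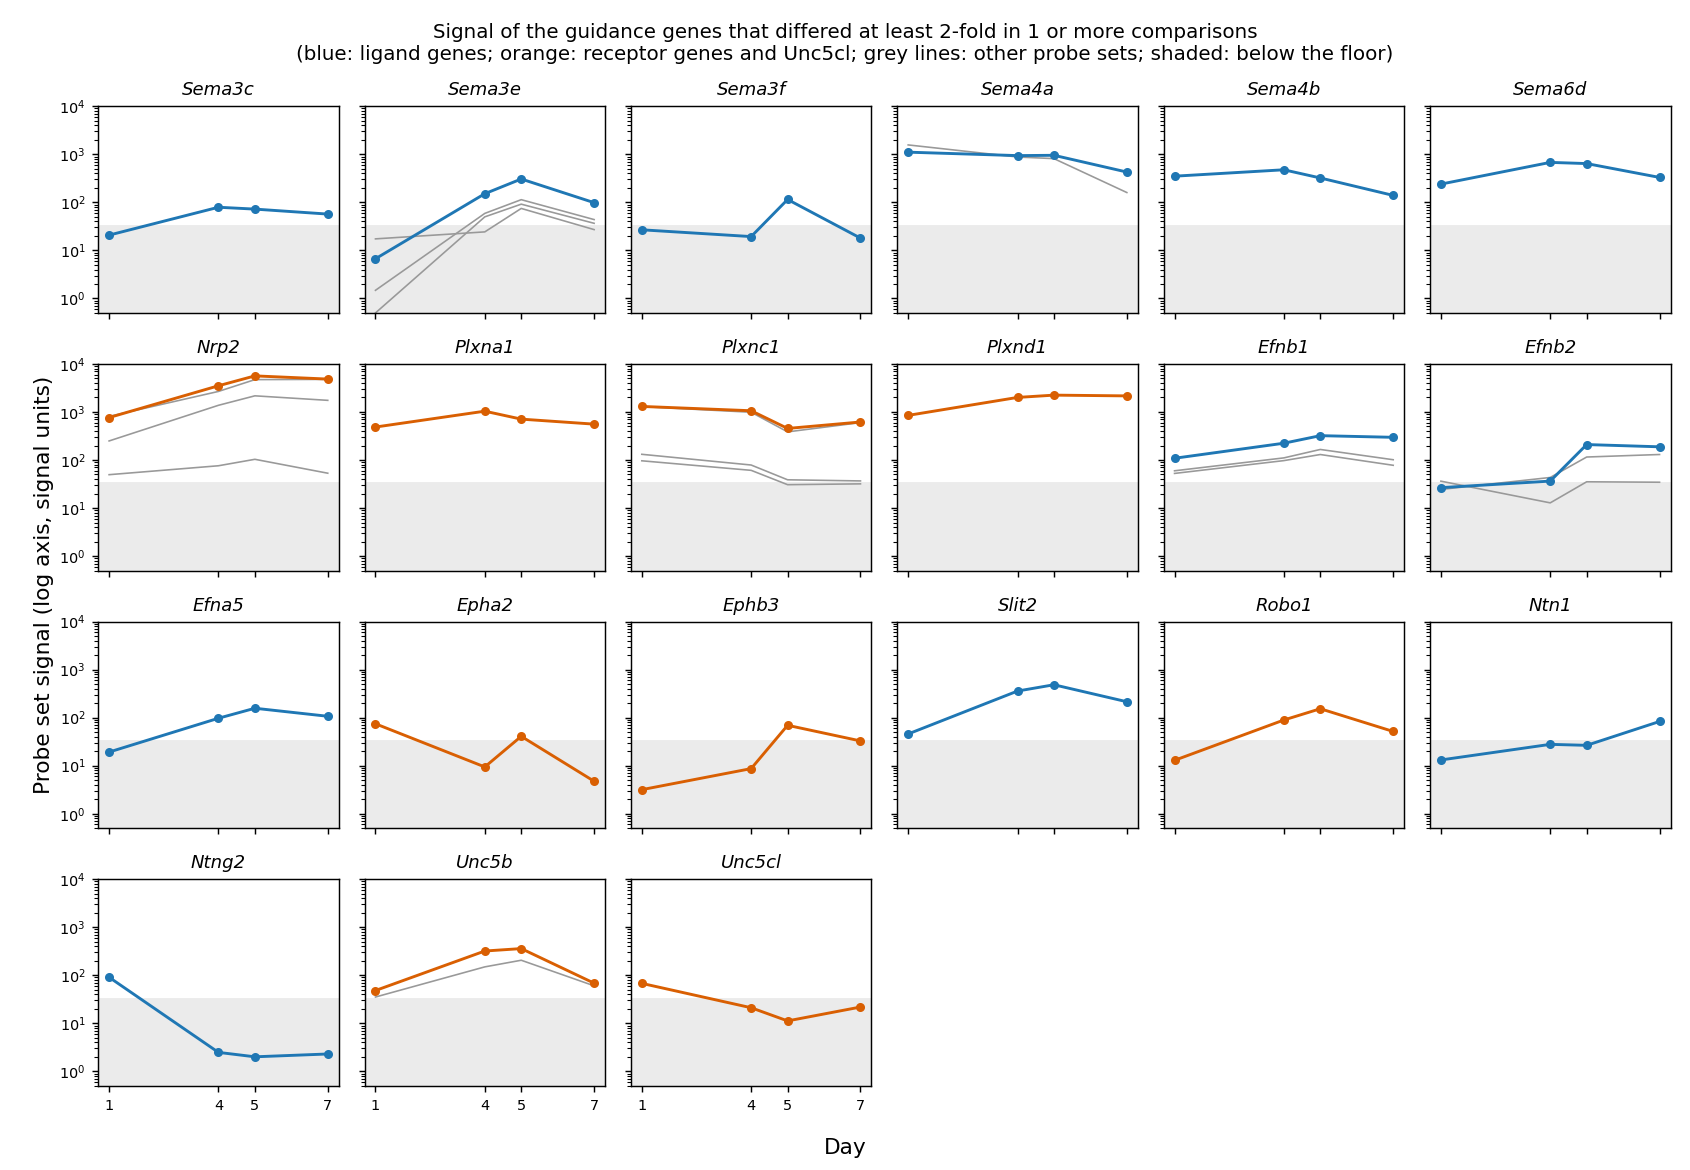
Probe set signal (log axis) on days 1, 4, 5 and 7 for the 21 guidance genes at least 2-fold apart in 1 or more of the 4 comparisons; coloured lines are the probe set used, grey lines the gene's other probe sets above the floor, the shaded band is below the floor of 32.4, and signals under 0.5 are drawn at 0.5. Slit2, Unc5b, Robo1 and Sema3e have their highest signal on day 5 and Efnb2 is high on days 5 and 7, at 209.5 and 188.

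Between fresh marrow and day 4, guidance genes were more often higher than lower. Of the 70 genes, 11 were at least 2-fold higher on day 4 (15.7%, against 6.61% of all genes) and 3 were lower (4.29%, against 5.69%). The higher genes were the semaphorin genes Sema3c, Sema3e and Sema6d, the receptor genes Nrp2, Plxna1, Plxnd1, Robo1 and Unc5b, and the ligand genes Slit2, Efnb1 and Efna5. The lower genes were Epha2, Ntng2 and Unc5cl. Also lower on day 4 were 7 of 7 red cell markers, 6 of 7 B cell markers and 6 of 10 neutrophil markers, while 13 of 15 stromal, 8 of 13 osteoclast and 5 of 11 macrophage markers were higher and 0 in these lists were lower. The part of these lists in the differences of the guidance genes was not tested. The median difference over all 70 genes was 0 on the log2 scale in this comparison, as it was over all genes, since many were at the floor on both arrays.

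After the cytokines were added, few guidance genes differed between days 4 and 5, though the share of higher genes was above that of all genes. Efnb2, Sema3e, Sema3f and Ephb3 were higher on day 5 (4 of 70, 5.71%, against 1.31% of all genes), and Plxnc1 was lower (1 of 70, 1.43%, against 2.62%). Between days 5 and 7 the direction was mostly downward. Sema3e, Sema3f, Sema4a, Sema4b, Slit2, Robo1, Unc5b and Ephb3 were lower on day 7 (8 of 70, 11.4%, against 3.73% of all genes), and Ntn1 was higher (1 of 70, 1.43%, against 0.544%). Over the whole time with cytokines, day 7 against day 4, Efnb2 and Ntn1 were higher (2.86%, against 2.02%), and Sema4a, Sema4b, Sema6d and Unc5b were lower (5.71%, against 5.89%), shares close to the background. This comparison shares its arrays with the 2 steps before it.

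**Figure D2:**
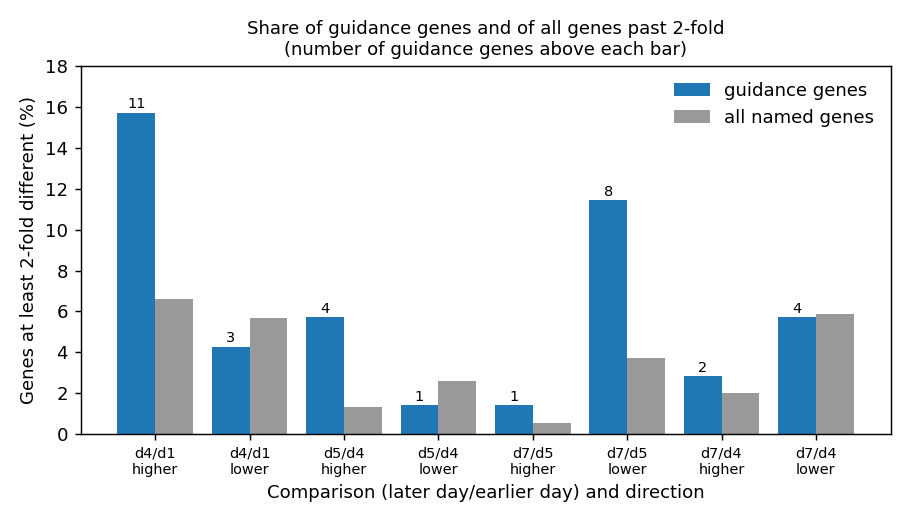
Bars give the percentage of the 70 guidance genes (blue, with their number above) and of all 18193 named genes (grey) that were at least 2-fold higher or lower in each comparison. The share of guidance genes is above that of all genes for higher on day 4 than on day 1 (15.7% against 6.61%). The same holds for higher on day 5 than on day 4 (5.71% against 1.31%). For lower on day 7 than on day 5 it is also above (11.4% against 3.73%), and on day 7 against day 4 the shares are close.

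Scaling shifted these splits. Over all genes that passed the floor on both arrays, the median log2 difference of day 7 over day 5 was -0.11 with the deposited signals, 0.03 with quantile normalization and 0.06 with all arrays brought to the same median. For day 7 over day 4 it was -0.08, 0.04 and 0.08. The guidance genes lower on day 7 than on day 5 then numbered 4 and 5 in place of 8: Ephb3, Slit2 and Sema4a stayed under 2-fold with both, and Sema4b with quantile normalization. Sema6d, lower on day 7 than on day 4, also stayed under 2-fold with both (-0.91 and -0.88). On day 7 against day 4 the split was 4 higher and 3 lower, or 3 higher and 2 lower, in place of 2 higher and 4 lower. On day 4 against day 1 quantile normalization gave 11 higher and 1 lower. No share of all genes is given here for the other scalings, so these counts cannot be set against the background. Relative to the median of all genes, Slit2 differed on day 7 over day 5 by -1.07, -0.97 and -1.06 under the 3 scalings, and Unc5b by -2.28, -2.06 and -2.28.

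**Figure D3:**
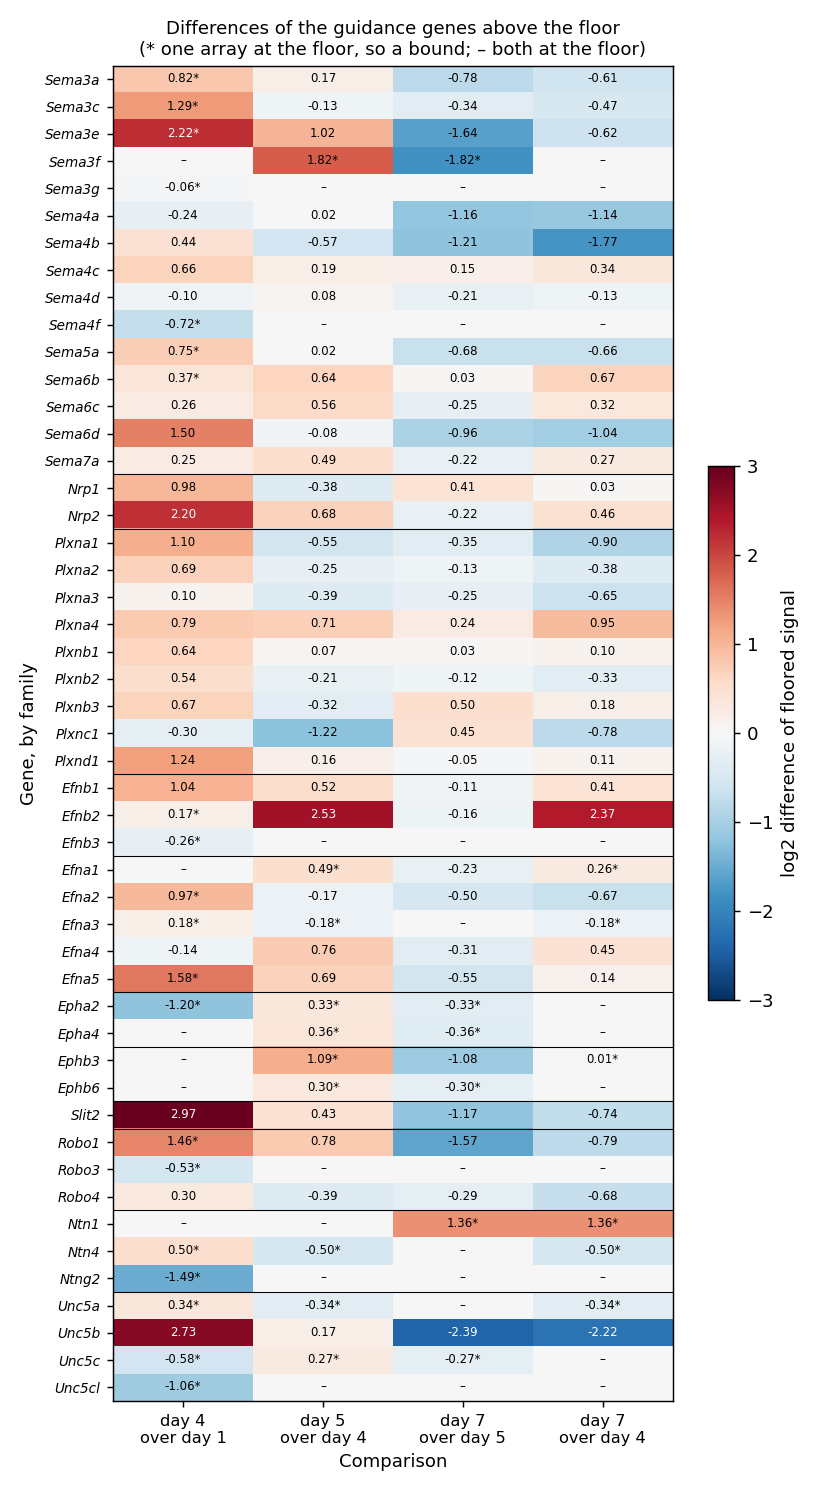
Log2 differences of floored signal for the 49 guidance genes above the floor on at least 1 array, in rows by family, for the 4 comparisons in columns; an asterisk marks a bound and a dash a gene at the floor on both arrays. The largest values are those of Slit2 (2.97) and Unc5b (2.73) at the step to day 4, Efnb2 (2.53) at the step to day 5, and Unc5b (-2.39) at the step to day 7.

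Among the class 3 semaphorins, which are secreted, Sema3e had the largest difference on day 4 over day 1. This ligand of Plxnd1 had signals of 6.70, 151, 306 and 98.6 on days 1, 4, 5 and 7. It was thus at least 4.67-fold higher on day 4 than in fresh marrow, 2.02-fold higher again on day 5 and 3.11-fold lower on day 7. Its 3 other probe sets also peaked on day 5, and their log2 differences between days 5 and 7 ranged from -1.38 to -1.21. Between days 1 and 4, 2 of them could be compared, with bounds of 0.62 and 0.86 on the log2 scale.

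Sema3c had signals of 20.8, 79.1, 72.4 and 57.0 on days 1, 4, 5 and 7, at least 2.44-fold higher on day 4. The other Sema3c probe set was at the floor. Sema3a, which protects bone by acting on both osteoclast precursors and osteoblasts, showed 16.1, 57.2, 64.5 and 37.6. It was not 2-fold apart at a step after flooring, with log2 differences of 0.82, 0.17 and -0.78. The first of these is a bound, since day 1 was under the floor, and 2-fold or more is possible there. Both genes were low on day 1 and highest on day 4 or 5. Sema3f was above the floor on day 5 alone, at 115, against 26.9, 19.4 and 18 on days 1, 4 and 7. That value comes from a probe set of a type that can match several transcripts, and the gene's 2 other probe sets were at the floor, so no difference was seen without it. Sema3g was at 33.8 on day 1 and at the floor afterwards.

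The class 4 semaphorins, held in the membrane, differed among themselves. Sema4a had signals of 1108, 939.6, 954 and 427, with log2 differences of -0.24 and 0.02 up to day 5, and was 2.23-fold lower on day 7 than on day 5. The probe set used is of the type that can match several transcripts; a second one gave 1568, 879, 813 and 160.1, a log2 difference of -2.34 at the late step. Sema4b had signals of 351, 477, 322 and 139.5, and was 2.31-fold lower on day 7 than on day 5 and 3.42-fold lower than on day 4. The other Sema4b probe set was at the floor. Markers of neutrophils (9 of 10) and of platelets (7 of 9) were also lower on day 7 than on day 5, with summed signals of 5328 against 37207 and 8366 against 15121; their part in the Sema4a and Sema4b differences was not tested. Sema4d, which osteoclasts make and which restrains osteoblasts through Plxnb1, was at 1873, 1748, 1854 and 1600.4, with no step beyond 0.21 in size on the log2 scale. Sema4c went from 97.5 through 154 and 176 to 195, and Sema4f was above the floor on day 1 alone, at 53.6.

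Sema6d, a ligand of Plxna1 in osteoclast precursors, had signals of 239.8, 679, 642 and 330.2. It was 2.83-fold higher on day 4 than on day 1, level on day 5 and 2.06-fold lower on day 7 than on day 4. Days 4 and 5 were high and days 1 and 7 low. The 3 other Sema6d probe sets were at the floor. Sema7a, a membrane-linked ligand of Plxnc1, had signals of 182, 216, 304 and 261, within 1.41-fold at each step. Sema5a, Sema6b and Sema6c stayed between 9.22 and 74.5 on the 4 arrays, and none of them was 2-fold apart at a step after flooring. For Sema5a and Sema6b the day 1 signal was under the floor, at 10.0 and 9.22. Their log2 differences on day 4 over day 1, 0.75 and 0.37, are thus bounds, and 2-fold or more is possible.

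Of the neuropilins, the co-receptors of most class 3 semaphorins and of VEGF, Nrp2 had the larger difference. Its signals were 765, 3506, 5629 and 4833 on days 1, 4, 5 and 7, so fresh marrow was low and all cultured samples were high. The difference between days 1 and 4 was 4.58-fold, and the log2 differences at the later steps were 0.68 and -0.22. The other 3 Nrp2 probe sets were also higher on day 4, by 0.62, 1.72 and 2.46. Nrp1 had signals of 1913, 3786, 2914 and 3875, a log2 difference of 0.98 on day 4 that lay just under the threshold. Of its other probe sets, 2 gave 0.82 and 1.09 at this step. Another probe set of Nrp1 ran the other way, at 351, 325, 172 and 119.

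Each of the 9 plexin genes passed the floor on some array. Plxnd1, the receptor for Sema3e, had signals of 848, 2005, 2238 and 2159, 2.36-fold higher on day 4 and level from then on. Plxna1, which in osteoclast precursors works with Trem2 and Tyrobp, had signals of 485, 1038, 709 and 558, 2.14-fold higher on day 4 and lower in value afterwards. The other Plxna1 probe set was at the floor. Trem2, an immunoglobulin-like receptor, was at 1987, 4808, 3025 and 4131, and its adaptor Tyrobp at 12777, 11478, 10752 and 11396, so Trem2 was 2.42-fold higher on day 4 and Tyrobp was within 1.11-fold at each step.

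Plxnc1, the receptor of Sema7a, had signals of 1303, 1059, 454 and 618. It was high on days 1 and 4 and 2.34-fold lower on day 5. Of its other probe sets, 3 could be compared at this step, with log2 differences of -1.36, -1.02 and -0.91. The summed signal of the neutrophil markers was 68753, 37207 and 5328 on days 4, 5 and 7. Its part in the Plxnc1 differences was not tested. Plxnb2 had signals of 1834, 2658, 2293 and 2113, with no step beyond 0.54 in size on the log2 scale. Plxnb1, the receptor of Sema4d, had signals between 44.7 and 74.7. Plxna4 went from 35.7 through 61.6 and 101 to 119, with log2 differences of 0.71 for day 5 over day 4 and 0.95 for day 7 over day 4. Its other probe set was at the floor on days 1 and 4 and passed 2-fold in both of these comparisons. The log2 differences of that probe set were, as bounds, 1.33 and 1.21. Plxna2, Plxna3 and Plxnb3 had signals between 52.3 and 141 on the 4 arrays, and none was 2-fold apart at a step. Of the other Plxna2 probe sets, however, 2 passed 2-fold on day 4 over day 1, with log2 differences of 1.16 and, as a bound, 1.25, against 0.69 for the one used.

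The ephrin gene Efnb2 had the largest difference of any member on day 5 over day 4 with the settings used. Ephrin B2 is a membrane ligand that osteoclast precursors are known to make under RANKL. Its signals were 26.6, 36.4, 209.5 and 188 on days 1, 4, 5 and 7. The 2 early arrays were at or near the floor and the 2 late arrays well above it, which made day 5 5.76-fold higher than day 4 and day 7 5.17-fold higher. A second probe set gave 24.4, 43.3, 115 and 130.1, while another had no difference beyond 0.16 in size, at signals no higher than 36.3, and the last was at the floor on all 4 arrays. The log2 difference of day 5 over day 4 was 2.53, against 1.6 with a floor at the 60th percentile and 1.01 with the mean over probe sets. At the same step the osteoclast markers had a summed signal of 51553 against 33381, with 4 of 13 at least 2-fold higher, and the stromal markers 39580 against 30490, with 0 of 15; their part in the Efnb2 difference was not tested. Efnb1, which encodes another transmembrane ephrin, had signals of 109, 224, 321 and 297, and was 2.06-fold higher on day 4 than on day 1. Its 2 other probe sets gave a log2 difference of 0.89 each, against 1.04, so it stayed under 2-fold without the probe sets whose names mark possible matches to several transcripts (0.89) and with the mean over probe sets (0.94). Efnb3 was above the floor on day 1 alone, at 38.8.

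The A-type ephrins, which are held by a lipid anchor, had weak signals. Efna5 was at 19.2, 97.1, 157 and 107, at least 2.99-fold higher on day 4 and highest on day 5. The other Efna5 probe set was at the floor. Efna2, which osteoclasts make and which acts through Epha2, was at 25.2, 63.4, 56.5 and 39.8, with a bound of 0.97 on the log2 scale on day 4; its second probe set was above the floor on day 1 alone, at 33.8. Efna1, Efna3 and Efna4 ranged from 3.47 to 72.7 and had no 2-fold step after flooring. The step of Efna1 to day 5 and those of Efna3 to and from day 4 are bounds, so larger differences are possible there.

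Eph receptor genes were mostly at the floor: 4 of 13 were above it on any array. Ephb4, the receptor of ephrin B2 on osteoblasts, had signals of 4.98, 20.3, 10.9 and 5.27, all under the floor. Epha2 was at 74.5, 9.42, 40.9 and 4.74, at least 2.30-fold lower on day 4, on a single probe set with no steady course. Ephb3 was at 3.17, 8.70, 69.3 and 32.8, at least 2.14-fold higher on day 5 and 2.11-fold lower on day 7, also on a single probe set. Epha4 and Ephb6 passed the floor on day 5 alone, at 41.6 and 40.0.

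Slit2, a secreted ligand of Robo receptors, had the largest measured fold of any member between days 1 and 4. Its signals were 45.8, 358, 483 and 214 on days 1, 4, 5 and 7, so it was 7.81-fold higher on day 4 and 2.26-fold lower on day 7 than on day 5. Its 2 other probe sets were at the floor. Its receptor gene Robo1 followed the same order of days, with signals of 12.9, 89.3, 153 and 51.6. Robo1 was at least 2.75-fold higher on day 4 and 2.97-fold lower on day 7 than on day 5. The 2 other Robo1 probe sets were at the floor. Slit3, a slit known from bone, had signals from 2.14 to 5.43. Robo4, of endothelial cells, ranged from 40.8 to 65.3, and Robo3 was above the floor on day 1 alone, at 46.7.

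Unc5b, a netrin receptor, was high on the middle arrays and low at both ends. Its signals were 48.2, 319.9, 359 and 68.5, which is 6.64-fold higher on day 4 than on day 1, level on day 5 and 5.25-fold lower on day 7 than on day 5. A second probe set gave 35.3, 149.6, 206 and 60.3, with log2 differences of 2.08 at the step to day 4 and -1.77 at the step to day 7. The ligand gene Ntn1 had signals of 13.2, 27.8, 26.5 and 83.2 and was above the floor on day 7 alone, where it was at least 2.57-fold higher; its second probe set was at the floor. Ntn1 and Unc5b thus had their high arrays on different days. Ntn4 passed the floor on day 4 alone, at 46.0. Ntng2, a membrane-anchored netrin, was at 90.9 on day 1 and between 2.01 and 2.49 afterwards, at least 2.80-fold lower. The other Ntng2 probe set was at the floor. Unc5cl was at 67.8 on day 1 and below the floor afterwards, at least 2.09-fold lower, and Unc5a and Unc5c had signals from 2.53 to 48.5.

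Of the 11 genes higher on day 4 than on day 1, Slit2, Robo1, Unc5b and Sema3e were also lower on day 7 than on day 5. These 4 are 36.4% of the 11 and 50% of the 8 genes lower at the late step. Over all genes, 314 met both criteria, which is 26.1% of the 1202 higher and 46.3% of the 678 lower. The 2 comparisons share no array. The stromal markers had the same order: 13 of 15 were higher on day 4 than on day 1 and 0 were lower, and 6 were lower on day 7 than on day 5 and 0 were higher, with the marker Postn at the floor throughout. The endothelial markers had a summed signal of 809 on day 5 and 428 on day 7, with 2 of 10 lower and Tie1 and Flt1 at the floor on all arrays. The part of either list in the differences of these guidance genes was not tested. Nrp2, Plxnd1 and Efnb1, which were also higher on day 4, had log2 differences between -0.22 and -0.05 from day 5 to day 7, although 2 further probe sets of Efnb1 gave -0.71 and -0.74. A further probe set of Nrp2 gave -0.96. The remaining genes higher on day 4 had -0.96 (Sema6d), -0.55 (Efna5), -0.35 (Plxna1) and -0.34 (Sema3c). The osteoclast markers had 2 of 13 higher and 0 lower at that step, and the macrophage markers 0 of 11 higher and 1 lower. The part of these 2 lists was not tested either.

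**Figure D4:**
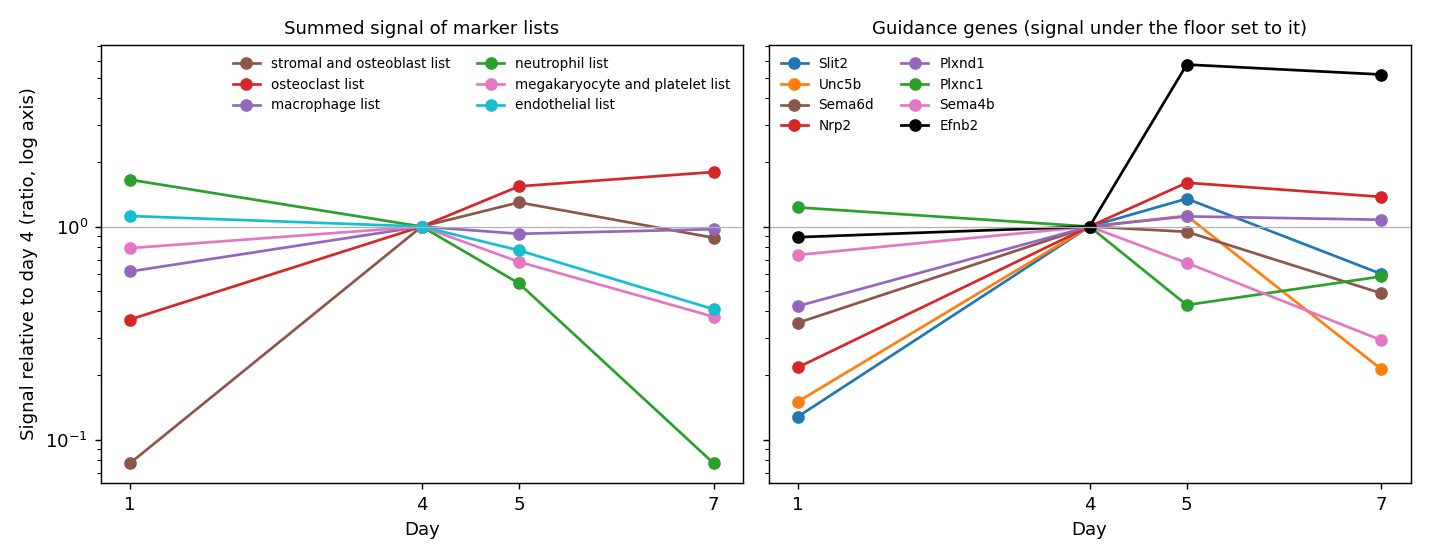
Ratio to day 4 (log axis) of the summed signal of 6 marker lists (left) and of the floored signal of 8 guidance genes (right) on days 1, 4, 5 and 7, with 1 array a day and no error bars. The stromal list goes from 2360 on day 1 to 39580 on day 5 and 27013 on day 7, Unc5b and Slit2 are highest on day 5 and lower on day 7, and Nrp2 and Plxnd1 are level from day 5 to day 7.

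The promoters of Slit2, Unc5b and Sema3e are shown because these members differed in the same directions. Robo1 differed in those directions too and is not shown. The promoter of Efnb2 is shown because that gene differed after the cytokines. The letters are the 250 bases before the annotated start in RefSeq, build GRCm38.p6, read 5′ to 3′ on the strand of the gene, with CG pairs in capitals.
Efnb2 (chr8:8661243-8661492, minus strand): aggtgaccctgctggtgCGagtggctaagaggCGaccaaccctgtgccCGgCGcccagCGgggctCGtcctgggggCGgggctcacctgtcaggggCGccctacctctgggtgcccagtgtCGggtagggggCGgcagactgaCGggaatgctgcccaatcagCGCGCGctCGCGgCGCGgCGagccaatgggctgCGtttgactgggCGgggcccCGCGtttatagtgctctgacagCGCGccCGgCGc
Slit2 (chr5:47982905-47983154, plus strand): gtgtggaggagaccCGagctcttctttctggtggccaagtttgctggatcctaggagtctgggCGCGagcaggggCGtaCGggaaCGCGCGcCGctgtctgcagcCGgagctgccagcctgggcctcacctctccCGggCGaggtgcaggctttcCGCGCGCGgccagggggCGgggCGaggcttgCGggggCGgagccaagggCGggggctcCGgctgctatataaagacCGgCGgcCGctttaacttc
Unc5b (chr10:60831582-60831831, minus strand): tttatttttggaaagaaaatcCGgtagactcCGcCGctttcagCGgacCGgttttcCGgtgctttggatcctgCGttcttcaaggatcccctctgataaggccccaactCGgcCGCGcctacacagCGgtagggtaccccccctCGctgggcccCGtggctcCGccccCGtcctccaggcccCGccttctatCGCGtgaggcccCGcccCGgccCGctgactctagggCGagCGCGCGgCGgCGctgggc
Sema3e (chr5:14025026-14025275, plus strand): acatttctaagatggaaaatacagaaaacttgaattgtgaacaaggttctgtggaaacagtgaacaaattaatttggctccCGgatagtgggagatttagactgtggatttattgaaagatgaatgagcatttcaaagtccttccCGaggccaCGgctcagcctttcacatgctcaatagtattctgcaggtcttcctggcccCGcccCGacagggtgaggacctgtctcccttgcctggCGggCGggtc

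The RefSeq table held 77 such promoters for 61 of the 70 genes. They were rich in CG pairs, with a median of 15 in 250 bases and 64% G and C, against 6 and 52.4% over 32851 promoters. Efnb2 and Unc5b had 27 CG pairs each and Slit2 25, while Sema3e had 7. Searched on both strands, the letters TATAAA were in 2 of the 77 promoters (2.60%, against 12.4% of all): in Slit2 and, on the opposite strand, in Efnb2, with the leftmost base 28 and 30 bases before the start. The AP-1 letters TGANTCA were in 3 of 77 (3.90%, against 6.75%), none of them in the 4 sequences shown. GGAAA, the core that NFAT factors bind, was in 41 (53.2%, against 55.6%): in the shown sequences there were 2 matches in Sema3e, 2 in Unc5b, 1 in Slit2 and 0 in Efnb2. A match says only that the letters are there.

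A list of 93 genes that act with the guidance families was examined beside them. On day 4, 14 were at least 2-fold higher than on day 1 (15.1%, against 6.61% of all genes) and 5 were lower (5.38%, against 5.69%). The largest differences were those of Gpc4 at 14.5-fold and Sdc1 at 6.27-fold, which encode heparan sulfate carriers, the collapsin response gene Dpysl3 at 7.69-fold and the plexin-linked exchange factor gene Farp1 at 5.77-fold. Lower were Tiam1, an activator of Rac (3.35-fold), the adhesion gene L1cam (3.30-fold), Rnd1 (2.29-fold) and the actin-binding gene Ablim1 (2.21-fold). Neo1, another netrin receptor, had signals of 12.1, 96.1, 130.5 and 62.8, the same order of days as Unc5b.

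On day 5 against day 4, 2 partner genes were higher (2.15%, against 1.31%) and 2 lower (2.15%, against 2.62%). Mst1r, a Met-like receptor kinase, had signals of 0.911, 121, 331 and 373, 2.73-fold higher on day 5, and Rnd1 was 2.11-fold higher. Cxcr4, the receptor of the chemokine Cxcl12 on which slits act, was at 1949.7, 890.2, 118 and 39.9, 7.57-fold lower on day 5, and Kalrn was 3.17-fold lower. On day 7 against day 5, 1 was higher (L1cam, 2.08-fold; 1.08%, against 0.544%). At the same step 12 were lower (12.9%, against 3.73%), led by the glypican gene Gpc1 at 3.66-fold, the actin regulator gene Enah at 3.07-fold, Farp1 at 3.05-fold and Pdzrn3 at 2.95-fold or more. On day 7 against day 4, Mst1r alone was higher, by 3.07-fold (1.08%, against 2.02%), and 9 were lower (9.68%, against 5.89%), among them Cxcr4 at 22.3-fold, Kalrn at 4.46-fold or more and Gpc1 at 4.18-fold.

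The precision of a single array can be judged only from probe sets of the same gene. For day 4 over day 1 the pooled SD of their log2 differences was 0.41, and for the steps to day 5 and then to day 7 it was 0.29 and 0.26. For day 7 over day 4 it was 0.36. It was larger for genes with a mean signal under 100 (0.35 to 0.47) than for those at 500 or more (0.20 to 0.34), and it does not hold the variation between cultures. Where a member was at least 2-fold apart and its other probe sets could be compared, they had the same direction in 8 of 8 cases at the step to day 4, 8 of 8 at the step to day 5 and 5 of 5 at the step to day 7, and in 4 of 4 for day 7 over day 4. They reached 2-fold in 3, 4, 5 and 3 of these cases. Counted with those at the floor on both arrays, which show no difference, these members had 20, 13, 13 and 10 other probe sets. The mean over all probe sets of a gene includes those at the floor. With it, the log2 difference on day 4 over day 1 was 0.99 for Slit2, 0.94 for Efnb1 and 0.93 for Sema3e. It was 0.79 for Efna5, 0.64 for Sema3c, 0.55 for Plxna1, 0.49 for Robo1 and 0.38 for Sema6d. Each of these values was under 2-fold.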

How the data were processed

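Gene expression was measured on 4 one-colour Affymetrix mouse arrays, 1 for each of days 1, 4, 5 and 7. Per the labels' protocols, RNA was extracted with Trizol and RNeasy, and 250.0 ng was labelled with biotin. The authors deposited probe set intensity on a linear scale. The submitters' processing notes name GCOS 1.4 and MAS5; no source used here gives the scaling target. The 64 control probe sets were left out, leaving 45037, of which 34945 had 1 gene symbol in the platform annotation. All 70 members matched the RefSeq table of GRCm38.p6 under the same symbol.

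Signals under the floor (32.4, the 50th percentile) were set to it and log2 differences were taken. With 1 array a group there was no test, and 2-fold is a threshold of size. Members, gene lists and the rule for named genes (members at least 2-fold apart, a fixed set of bone pairs, up to 4 partners a direction) were chosen with earlier results of these data known. Kdr is on the partner and the endothelial lists. For the marker lists whose summed signals the report gives in part or not at all, the sums on days 1, 4, 5 and 7 were as follows: macrophages (52352, 85067, 78648 and 82653), endothelium (1172, 1046, 809 and 428), platelets (17546, 22156, 15121 and 8366), B cells (6519, 2254, 447 and 165), red cells (18937, 65.2, 77.4 and 65.5), and Schwann cells and nerve (620.4, 219, 214 and 131). Alternatives were other floors, 2 scalings, the mean over probe sets, and leaving out cross-matching probe sets. Counting was tested on simulated data. Python 3.11.15, numpy 2.4.6, pandas 2.3.3 and matplotlib 3.10.9 were used.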

Additional observations from a re-analysis of the deposited data

How the results depend on the processing

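The number of arrays, 1 a day, limits every value, and signals near the floor limit most counts. In this paragraph each count is of guidance genes at least 2-fold apart, and a count not named for a setting was within 1.5 times the reported one. Shares of all genes under these settings are not given here, so the counts cannot be set against the background. A floor at the 25th percentile (8.43) gave 22 higher and 9 lower on day 4 over day 1 in place of 11 and 3, 2 lower on day 5 over day 4 in place of 1, 3 higher on day 7 over day 5 in place of 1, and 6 higher and 9 lower on day 7 over day 4 in place of 2 and 4. A floor at the 60th percentile (68.9) gave 0 lower on day 4 over day 1, 2 higher on day 5 over day 4, 0 higher on day 7 over day 5 and 1 higher on day 7 over day 4. Quantile normalization gave 1 lower on day 4 over day 1, 4 lower on day 7 over day 5 and 4 higher on day 7 over day 4. Median scaling gave 5 lower on day 7 over day 5 and 2 lower on day 7 over day 4. The mean over probe sets, which counts probe sets at the floor, gave 3 higher on day 4 over day 1, 0 lower on day 5 over day 4, 0 higher and 4 lower on day 7 over day 5, and 2 lower on day 7 over day 4. A floor at the 75th percentile (254), chosen after seeing the data, gave 4 higher (Nrp2, Plxna1, Plxnd1 and Sema6d) and 0 lower on day 4 over day 1, 0 higher on day 5 over day 4, 0 higher and 1 lower (Sema4a) on day 7 over day 5, and 0 higher and 2 lower (Sema4a and Sema6d) on day 7 over day 4. Leaving out cross-matching probe sets, which leaves 66 of the 70 genes, moved no count by more than 1.5 times. Past 2-fold in the same direction under all 6 settings other than the 75th percentile floor were Nrp2, Plxnd1 and Unc5b on day 4 over day 1, Efnb2 and Sema3e on day 5 over day 4, Sema3e and Unc5b on day 7 over day 5, and Efnb2 and Unc5b on day 7 over day 4. Of 584 values of the 21 named genes under the 7 alternatives, 126 moved by more than the pooled SD between probe sets and 0 of those past 2-fold changed sign. No paired analysis was possible because each day has 1 array.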

Other observations

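Some guidance genes lie next to each other in the RefSeq order of protein-coding genes: Efna1, Efna3 and Efna4 in a row, Sema3d beside Sema3a, Robo1 beside Robo2, and Robo4 beside Robo3. Robo1 reached 153 on day 5 while Robo2 was at the floor on all 4 arrays, and Sema3a reached 64.5 while Sema3d was at the floor. Robo4 was above the floor on all 4 arrays and Robo3 on day 1 alone, at 46.7. In the ephrin row, Efna4 was above the floor on each array, at 47.4, 43.0, 72.7 and 58.5, Efna1 on days 5 and 7, at 45.6 and 38.9, and Efna3 on day 4 alone, at 36.7; Efna1 and Efna4 both had their highest signal on day 5.

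The L1 adhesion gene L1cam, a partner of the semaphorin receptors, had signals of 208, 63.1, 46.7 and 97.1, and was the only partner gene at least 2-fold higher on day 7 than on day 5. Cd72, a receptor for Sema4d on lymphocytes, was at 1704, 967, 1294 and 1387, and Met, which pairs with Plxnb1, at 214, 396, 644 and 424; neither reached 2-fold at a step.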
